A study of Rattus norvegicus with 48 samples.

Results

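The livers of rats that had received thioacetamide (TAA) for 3 days were compared with livers of control rats of the 2 earliest time points. TAA is a hepatotoxicant and liver carcinogen that hepatocytes oxidize to reactive products. The comparison used 14 of the 48 liver small RNA libraries of the study, chosen by their labels and, for a single control, by depth. All came from male Sprague-Dawley rats, and 9 of them from rats dosed once daily for 3 days, 3 at 4.5 mg/kg (low dose 3-d, replicates 43 to 45), 3 at 15 mg/kg (middle dose 3-d, replicates 10 to 12) and 3 at 45 mg/kg (high dose 3-d, replicates 22 to 24). The other 5, called early controls here, came from rats given vehicle alone, 2 for 3 days (control 3-d, replicates 2 and 3) and 3 for 7 days (control 7-d, replicates 4 to 6). Control 3-d replicate 1 was left out because it held only 293331 counted reads. As 3 of the 5 controls belong to a later time point, values against the 2 control 3-d libraries alone are given as well. No ages and no batches are named in the labels.

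A miRNA is cut from one arm of a hairpin precursor (the 5p or the 3p arm) and guides a silencing complex to mRNAs that pair with its seed, which is bases 2 to 8 of the mature miRNA. miRNAs with the same seed are therefore expected to recognize overlapping sets of mRNAs. In liver, miR-122 and miR-192 are abundant hepatocyte miRNAs. miR-34a is transcribed in response to p53 and represses cell cycle and survival genes, while miR-21, miR-146, miR-155 and the miR-132 and miR-212 pair are induced in inflammation and tissue injury. miR-200 family members maintain the epithelial state, and miR-29 family members repress collagen and other matrix genes.

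The sequences below are those of the miRNAs on which the results turn. They are RefSeq sequences of the GRCr8 assembly, found by name for 94 of 99 named miRNAs and for 270 of the 301 miRNAs tested, with the seed in capitals, whereas the reads were assigned to miRBase. The first 3 share a seed, and the first of them was called at every dose.
miR-34a-5p (chr5:165815971-165815992, plus strand): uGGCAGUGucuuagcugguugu
miR-34c-5p (chr8:60306133-60306155, minus strand): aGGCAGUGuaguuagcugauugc
miR-449a-5p (chr2:46403925-46403946, plus strand): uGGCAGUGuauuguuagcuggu

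The next group rose at high dose, apart from miR-146a-5p, which is shown for its shared seed. miR-21-3p and miR-21-5p are both arms of a single hairpin and have different seeds, miR-146a-5p and miR-146b-5p share a seed and differ near the 3′ end, and miR-132-3p and miR-212-3p share a seed and lie close together on chromosome 10.
miR-21-3p (chr10:71902615-71902636, minus strand): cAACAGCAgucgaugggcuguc
miR-21-5p (chr10:71902653-71902674, minus strand): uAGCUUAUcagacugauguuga
miR-155-5p (chr11:37261117-37261139, plus strand): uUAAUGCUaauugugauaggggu
miR-146a-5p (chr10:28350053-28350074, minus strand): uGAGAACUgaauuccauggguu
miR-146b-5p (chr1:255144874-255144897, plus strand): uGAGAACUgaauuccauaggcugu
miR-132-3p (chr10:60522091-60522112, plus strand): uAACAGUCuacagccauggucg
miR-212-3p (chr10:60521811-60521832, plus strand): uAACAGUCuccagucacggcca

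The last group holds the miRNAs that responded at low dose (miR-148a-5p, miR-7a-5p, miR-98-5p, miR-128-3p and miR-29a-3p), the other 2 members of the miR-29 seed family, let-7a-5p, which has the seed of miR-98-5p, and miR-6329 and miR-466b-3p, whose treated and control values did not overlap.
miR-148a-5p (chr4:81664483-81664505, minus strand): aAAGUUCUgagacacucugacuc
miR-7a-5p (chr1:142215818-142215840, plus strand, and another locus): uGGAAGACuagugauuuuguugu
miR-98-5p (chrX:24460663-24460684, plus strand): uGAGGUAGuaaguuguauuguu
let-7a-5p (chr8:50805219-50805240, plus strand, and another locus): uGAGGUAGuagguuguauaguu
miR-128-3p (chr8:120963807-120963827, minus strand, and another locus): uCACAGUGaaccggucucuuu
miR-29a-3p (chr4:60617968-60617989, minus strand): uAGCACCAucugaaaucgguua
miR-29b-3p (chr4:60618342-60618364, minus strand, and another locus): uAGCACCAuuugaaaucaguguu
miR-29c-3p (chr13:109099412-109099433, plus strand): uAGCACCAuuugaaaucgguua
miR-6329 (chr8:61334292-61334314, minus strand): aAUGUGACucagcuaucugaaca
miR-466b-3p (chr17:72945512-72945533, minus strand): aUACAUACacacacacauacac

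The 14 libraries held between 6602592 and 13230394 counted reads (median 8817285), so that a count of 3 reads corresponded to 0.227 to 0.454 RPM (counts per 1000000 counted reads). This limit covers counting error only. No 2 libraries of a group agreed within sampling noise. The median standard deviation of a miRNA between libraries of a group was 0.15 on the log2 scale in control 3-d, 0.13 in control 7-d, 0.15 at low dose, 0.38 in the middle dose livers and 0.34 in the high dose livers. The tissue had a liver profile. The listed hepatocyte miRNAs took up 480920 to 504830 RPM in the controls and 469075 to 508219 RPM in the treated libraries, with miR-192-5p first in both. Within the middle and high dose groups, single libraries stood apart. High dose 3-d replicate 24 was past the highest early control in only 9 of the 20 miRNAs that are called higher below for all doses together, whereas high dose 3-d replicates 22 and 23 were past it in 20 of 20. It exceeded the control mean by more than 0.5 on the log2 scale in 4 of the 20. Middle dose 3-d replicate 12 did so in 8, and middle dose 3-d replicates 10 and 11 in 16 and 13. The main high dose results are given with and without high dose 3-d replicate 24. That library was singled out by its values in the called miRNAs, not by a label. Results without it show only how far they depend on it. Because it was chosen this way, smaller SEs and adjusted p-values without it are no separate evidence, nor are miRNAs called only then. Levels are given as normalized RPM, which are RPM scaled by the upper quartile, and differences as log2 fold changes of edgeR's quasi-likelihood fit with their standard error (SE). A DEM (differentially expressed miRNA) was defined by a fold change of more than 1.5 with p below 0.05 before adjustment. Only DEMs whose Benjamini-Hochberg adjusted p-value over the 301 tested miRNAs was also below 0.05 are said below to have risen, fallen or been called. The p-values measure the spread between these rats. As these are bulk livers, fewer cells of a type and less RNA per cell cannot be told apart.

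With the 3 doses weighted equally (9 treated against 5 early controls), TAA raised 20 miRNAs and lowered 3. The largest rises were those of miR-34a-5p, miR-466b-3p, miR-21-3p and miR-6329, with log2 fold changes of 2.40 to 1.48, and the 3 that fell were the epithelial miR-429 and miR-200b-3p and the brain-enriched miR-128-3p. There were 42 DEMs, 35 higher (11.6% of those tested) and 7 lower (2.33%), and the 20 and 3 that passed the adjustment are 6.64% and 0.997%. The median of all 301 log2 fold changes was 0.16 under upper quartile normalization, 0.03 with TMM, 0.00 with the size factors of DESeq2 and 0.10 with library size alone, so the division between higher and lower depended on the scaling. With TMM, 25 DEMs were higher and 13 lower. All 23 called miRNAs kept their direction under these 3 scalings, and 20 were still DEMs with TMM. Against the 2 control 3-d libraries alone there were 28 DEMs (9.30%), 19 higher and 9 lower. The 23 called miRNAs all had the same direction there and 16 were DEMs. As the 9 treated libraries and 2 of the 5 controls are the same, this agreement is no separate evidence. In edgeR, 0 of the 301 passed the adjustment there and 38 had p below 0.05 before it. The Wald test of DESeq2 gave 10 with adjusted p-values below 0.05.

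The number called depended on single libraries. When high dose 3-d replicate 24 was removed it was 46, with all 23 still among them. It was 12 without low dose 3-d replicate 43, 9 without low dose 3-d replicate 45, 10 without high dose 3-d replicate 22, 6 without control 7-d replicate 4 or 5, and 7 without control 7-d replicate 6. As DEMs, 20 of the 23 were found whichever library was left out, and 5 of the 23 (miR-155-5p, miR-21-3p, miR-34a-5p, miR-7a-5p and miR-6329) also passed the adjustment each time.

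**Figure D1:**
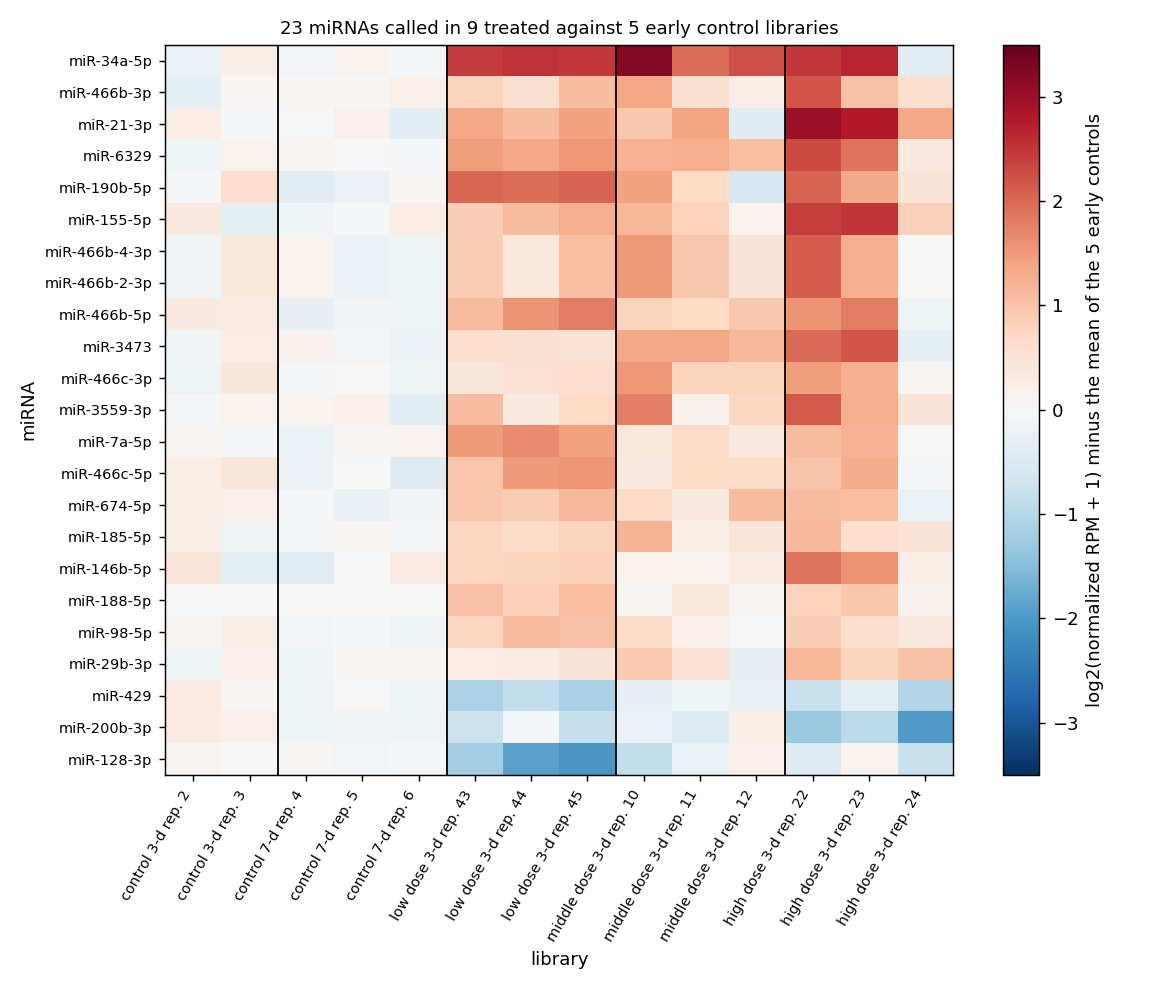
Heat map of the 23 miRNAs called in the 9 treated against the 5 early control libraries (rows) in each library (columns). Color gives log2(normalized RPM + 1) minus the mean of the 5 early controls. The median of the 20 higher miRNAs was between 0.43 and 1.93 above that mean in 8 treated libraries and 0.18 above it in high dose 3-d replicate 24.

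miR-34a-5p had the largest all-dose log2 fold change of the called miRNAs. It was at 39 and 52.2 normalized RPM in control 3-d, at 41.9, 49.3 and 44.1 in control 7-d, at 251, 263 and 256 in the low dose libraries, at 427, 177 and 215.6 in the middle dose libraries, and at 257, 293 and 33.8 in the high dose libraries. All treated libraries but high dose 3-d replicate 24, which was below every control, were more than 3 times the highest control. The log2 fold change was 2.40 (SE 0.39, adjusted p = 0.00325), and a 2-sided exact permutation test of its 9 treated and 5 control values gave p = 0.003, where the smallest p the test allows is 0.0005. Against the 2 control 3-d libraries it was 2.39 (SE 0.61, adjusted p = 0.132). By dose it was 2.50 (SE 0.45) at low, 2.59 (SE 0.45) at middle and 2.10 (SE 0.45) at high dose, and 2.49, 2.58 and 2.09 against control 3-d. When high dose 3-d replicate 24 was removed it became 2.56 (SE 0.20) for all doses and 2.60 (SE 0.25) at high dose. It was the 1 miRNA called at middle dose, where the call was lost without control 3-d replicate 2, without middle dose 3-d replicate 10 and without control 7-d replicate 4.

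The relatives of miR-34a-5p with its seed were not called at any dose with all 14 libraries. miR-34c-5p, with the same seed, was at 54.2 and 63.9 normalized RPM in control 3-d, 52.1 to 56.9 in control 7-d, 48.8 to 49.8 at low dose, 29.2 to 50.3 in the middle dose livers and 42.4 to 62.4 in the high dose livers, with a log2 fold change of -0.30 (SE 0.14, adjusted p = 0.163) for all doses and -0.37 against control 3-d. miR-449a-5p had a log2 fold change of 0.45 (SE 0.27) for all doses and 0.23 against control 3-d, and 0.71 (SE 0.34, adjusted p = 0.163) at high dose, where its 3 values were 6.74, 7.55 and, in replicate 24, 2.13 normalized RPM against 2.53 to 4.08 in the controls. Without that library the high dose value was 1.09 (SE 0.23, adjusted p = 0.00359). The other arm of the hairpin, miR-34a-3p, was too scarce to be tested, at 0 or 1 read in the 5 controls and 1 to 22 reads in the 9 treated ones. Its share of the pair's reads was at most 0.274% in the controls, 0.164 to 0.25% at low dose, 0.519 to 0.631% in the middle dose livers and 0.262 to 0.688% in the high dose livers, which rests on these few reads.

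miR-6329, miR-188-5p and miR-466b-3p were the 3 of 301 miRNAs (0.997%) whose 9 treated values all lay above the 5 controls. miR-6329, a rat miRNA of which little is known, was at 25.7 and 31 normalized RPM in control 3-d, at 27.9 to 30.1 in control 7-d, at 81.0, 73.7 and 83.8 at low dose, at 68.0, 70.1 and 60 in the middle dose livers, and at 141.5, 109.8 and 36.6 in the high dose livers. High dose held both its highest values and its lowest treated value, the latter in replicate 24. Its log2 fold change was 1.48 (SE 0.24, adjusted p = 0.00325). Against control 3-d it was 1.49 (SE 0.36, adjusted p = 0.132) for all doses, and at low and high dose, with 1.49 and 1.76, it passed the adjustment there too (adjusted p = 0.0491 and 0.0489).

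miR-188-5p was almost constant in the controls, at 14.9 to 15.2 normalized RPM. It was at 27.6 to 32 at low dose and at 27.2, 30.5 and 16.6 at high dose, and at 15.5 to 19.9 at middle dose, just above the controls. The log2 fold change was 0.65 (SE 0.15, adjusted p = 0.0213) for all doses and 0.65 (SE 0.23) against control 3-d. With TMM normalization it was 0.53, under the fold change of a DEM. miR-466b-3p, one of a repeat-derived family with near-identical copies among which reads could be split, had only 5 to 13 reads in the controls and 8 to 85 in the treated libraries. It was at 0.551 to 1.21 normalized RPM in the controls and at 1.28 to 7.95 in the treated, a log2 fold change of 1.56 (SE 0.41, adjusted p = 0.0305), and 1.86 (SE 0.64) against control 3-d. The closest values were 1.28 (8 reads, middle dose 3-d replicate 12) and 1.21 (13 reads, control 7-d replicate 6), so the separation rests on few reads. miR-466b-3p did not reach 5 RPM in 3 of the 14 libraries and was tested through libraries outside this comparison. With control 3-d replicate 1 added, or against all 11 controls, it was no DEM. Other listed members of this family were among the 23 as well, namely miR-466c-3p by rule with 1.13 (SE 0.31) and, chosen after their values were seen, miR-466b-5p, miR-466c-5p and the pair miR-466b-2-3p and miR-466b-4-3p with 0.91 to 1.31. Against control 3-d, miR-466b-5p had 0.96, and miR-466c-3p (0.95), miR-466c-5p (0.61) and the pair (1.11) were no longer DEMs. The pair had the same values in every library, so the 2 are not separate evidence. The remaining called miRNAs that the rule did not name are miR-190b-5p (1.41), miR-3473 (1.25), miR-3559-3p (1.08), miR-674-5p (0.87) and miR-185-5p (0.79), with 1.12, 1.17, 1.06, 0.66 and 0.75 against control 3-d, where miR-674-5p was no longer a DEM.

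**Figure D2:**
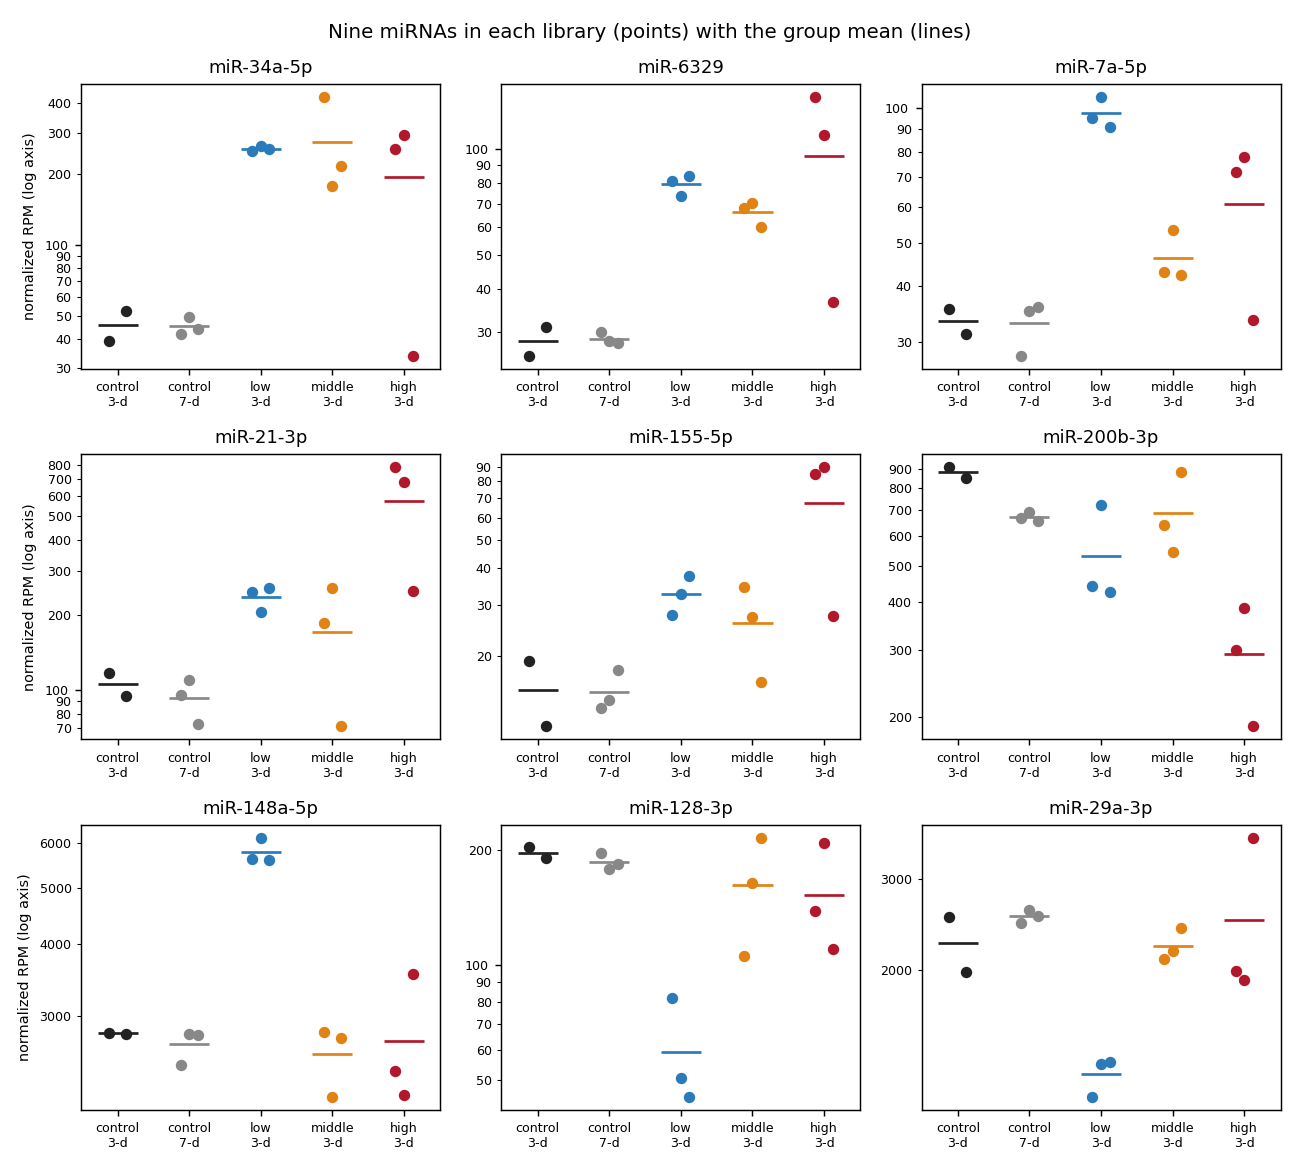
Normalized RPM (log axis) of 9 miRNAs in each of the 14 libraries (points), by group, with the mean of each group (lines). miR-34a-5p lies at 251 to 263 in the 3 low dose libraries and at 33.8 in 1 high dose library, and miR-148a-5p at 5606 to 6127 at low dose against 2476 to 2810 in the controls.

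The inflammation-induced miRNAs rose most clearly at high dose. Of 8 tested members, 3 were called higher for all doses, 2 at low dose, 0 in the middle dose livers and 7 in the high dose livers. Of all tested miRNAs, 6.64% were called higher for all doses, and 15.6% were called at low dose and 12.3% at high dose. The median log2 fold change of the list at high dose was 1.87 against 0.19 for all tested miRNAs. The 7 are not separate findings, as they include both arms of miR-21 and the products of the neighbouring miR-132 and miR-212 precursors. miR-212-3p and miR-212-5p did not reach 5 RPM in 3 of the 14 libraries and were tested through libraries outside this comparison. miR-21-3p was at 117 and 94.6 normalized RPM in control 3-d, at 73.1 to 109.4 in control 7-d, at 246, 205 and 256 at low dose, at 186, 255 and 71.3 in the middle dose livers, and at 783, 684 and 249.9 in the high dose livers. Only middle dose 3-d replicate 12 was below the controls. The log2 fold change was 1.54 (SE 0.30, adjusted p = 0.00737) for all doses and 2.55 (SE 0.36, adjusted p = 0.00118) at high dose, and 1.43 and 2.43 against control 3-d (adjusted p = 0.215 and 0.0474). Without high dose 3-d replicate 24 the high dose value was 2.91 (SE 0.31).

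The main arm of the same hairpin, miR-21-5p, one of the most abundant miRNAs of the liver, changed less. It was at 33593 and 30065 normalized RPM in control 3-d, at 23087 to 36845 in control 7-d, at 44320 to 50286 at low dose, at 25037 to 39730 in the middle dose livers and at 52266 to 59552 in the high dose livers. At high dose it rose by 0.79 (SE 0.15, adjusted p = 0.0064) on the log2 scale, with 0.79 (SE 0.21) against control 3-d, and replicate 24, at 52266, was close to replicate 23, at 52973. The share of miR-21-3p in the reads of the pair was 0.273 to 0.347% in the controls, 0.461 to 0.543% at low dose, 0.284 to 0.638% in the middle dose livers and 0.476 to 1.30% in the high dose livers. The low and high dose shares were above those of all controls, and the middle dose shares overlapped them.

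miR-155-5p, a regulator of macrophage and lymphocyte activation, was at 11.4 to 19.1 normalized RPM in the 5 controls, at 27.6 to 37.6 at low dose, at 34.6, 27.1 and 16.2 in the middle dose livers, and at 84.7, 89.6 and 27.4 in the high dose livers. It rose by 1.35 (SE 0.27, adjusted p = 0.00907) for all doses, by 1.11 (SE 0.33) at low dose and by 2.15 (SE 0.33) at high dose, with 1.34, 1.10 and 2.14 against control 3-d. Without high dose 3-d replicate 24 the high dose value was 2.53 (SE 0.25). miR-146b-5p, a feedback inhibitor of Toll-like receptor signaling, was at 229 to 413 in the controls and at 1119, 916 and 359 at high dose, and rose by 1.35 (SE 0.28, adjusted p = 0.0087) there, with 1.27 (SE 0.38) against control 3-d and 1.70 (SE 0.19) without replicate 24. miR-146a-5p has the same seed. It was the 1 tested member of the list not called at high dose, with all-dose values of 938 to 1569 against 910.0 to 1414 in the controls and a log2 fold change of 0.03 (SE 0.12), or 0.07 against control 3-d.

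miR-132-3p, miR-212-3p and miR-212-5p, which derive from neighbouring precursors, were high in high dose 3-d replicates 22 and 23. miR-132-3p was at 3.63 to 6.05 normalized RPM in the controls and at 19.8, 25.2 and 4.97 at high dose. It rose by 1.73 (SE 0.39, adjusted p = 0.0135) at high dose and by 2.16 (SE 0.27) without replicate 24, and its value against control 3-d was 1.51 (SE 0.54). miR-212-5p had 3 to 5 reads in the controls, which is at the limit of detection, and 31, 71 and 8 reads at high dose, a rise of 2.84 (SE 0.54, adjusted p = 0.0064), with 2.64 (SE 0.78) against control 3-d and 3.31 (SE 0.37) without replicate 24. miR-212-3p was at 1.10 to 1.58 in the controls and at 5.05, 10.2 and 0.799 at high dose (log2 fold change 2.0, SE 0.52, adjusted p = 0.0207, 2.16 against control 3-d, and 2.51 without replicate 24).

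Of 6 tested leukocyte miRNAs, 0 were called higher and 3 lower at low dose, where 15.6% of all tested miRNAs were called, and 1 was called higher at high dose (12.3% of all), while their summed level was 3003 to 3785 RPM in the controls, 2259 to 2827 at low dose, 2301 to 4129 in the middle dose livers and 3449 to 4728 in the high dose livers. miR-142-3p, a marker of hematopoietic cells, was the one that rose at high dose, from 114 to 134 normalized RPM in the controls to 284, 253 and 176 (log2 fold change 0.91, SE 0.26, adjusted p = 0.0286, 0.91 against control 3-d, and 1.09 without replicate 24). The lymphocyte miRNA miR-150-5p fell at low dose from 401 to 726 in the controls to 217.4 to 326 (log2 fold change -1.11, SE 0.25, adjusted p = 0.007, and -1.10 against control 3-d), and the myeloid miR-223-3p fell there by 0.81 (SE 0.25, adjusted p = 0.0373) and by 1.06 (SE 0.29) against control 3-d. The third was the macrophage miRNA miR-511-5p, which fell by 0.91 (SE 0.26, adjusted p = 0.0265) and had -0.95 against control 3-d. The part of leukocyte content in the inflammation-induced rise was not tested.

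The epithelial and bile duct list held 2 of the 3 miRNAs that fell for all doses. miR-200b-3p was at 909 and 853 normalized RPM in control 3-d, at 656 to 691 in control 7-d, at 441, 725 and 427 at low dose, at 639, 541.7 and 884 in the middle dose livers, and at 301, 386 and 189 in the high dose livers. All 3 high dose values were below all other libraries. It fell by 0.67 (SE 0.18, adjusted p = 0.0335) for all doses and by 1.37 (SE 0.26, adjusted p = 0.0064) at high dose, where the value against control 3-d was -1.59 (SE 0.29, adjusted p = 0.0291). It was lowest in high dose 3-d replicate 24, without which the high dose value was -1.14 (SE 0.26). Against the 3 control 7-d libraries alone the all-dose value was -0.50 and no longer a DEM.

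miR-429, a close relative of miR-200b-3p, was at 283 and 242 in control 3-d, at 204 to 227 in control 7-d, at 107.3, 127 and 104 at low dose, at 189, 207 and 191 in the middle dose livers, and at 132.8, 186 and 113 in the high dose livers. Low and high dose were below all controls, and middle dose overlapped control 7-d. It fell by 0.66 (SE 0.13, adjusted p = 0.00737) for all doses, by 1.04 (SE 0.18) at low dose and by 0.69 (SE 0.17) at high dose, with -0.84, -1.22 and -0.87 against control 3-d (adjusted p = 0.0616, 0.0113 and 0.0509). The all-dose value was -0.58 without control 3-d replicate 2 and -0.53 against control 7-d alone, and the high dose value -0.54 without replicate 24, all under the fold change of a DEM. Other members went the other way at low dose. miR-182 rose by 0.88 (SE 0.22, adjusted p = 0.0156), miR-200a-5p by 1.12 (SE 0.34) and miR-200a-3p by 0.64 (SE 0.21), with 0.62, 0.95 and 0.41 against control 3-d, and 0 of these 3 passed the adjustment there. Of the 9 tested members of the list, 3 rose and 1 fell at low dose, where 15.6% of all tested miRNAs were called, and 0 rose and 2 fell at high dose (12.3% of all). With TMM normalization the low dose value of miR-200a-3p was 0.52, under the fold change of a DEM.

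**Figure D3:**
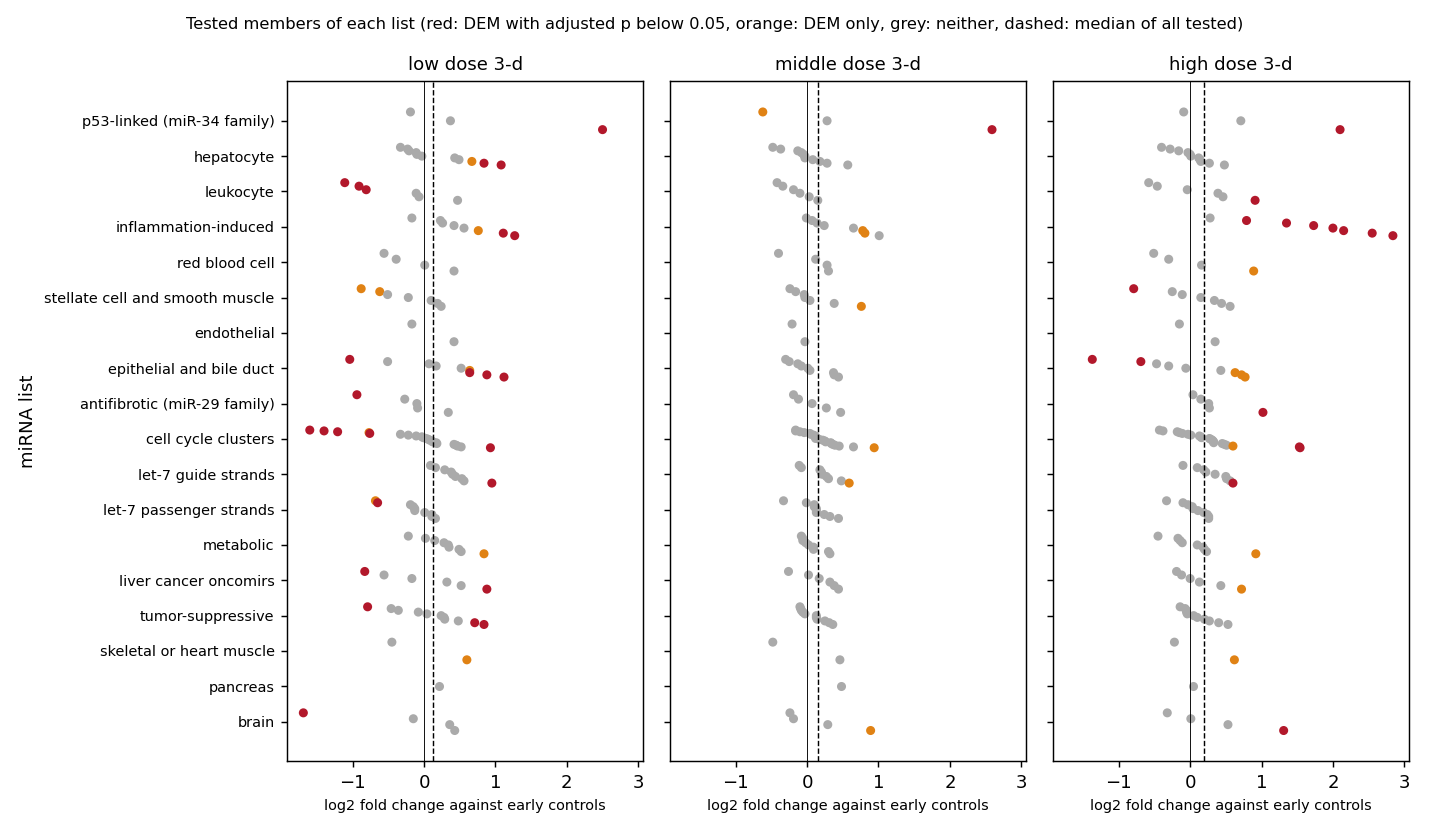
Log2 fold change against the early controls of each tested member (points) of 18 miRNA lists at low, middle and high dose. Red points are DEMs with an adjusted p-value below 0.05, orange points other DEMs and grey points neither, and the dashed lines mark the median of all tested miRNAs (0.12, 0.15 and 0.19). The inflammation-induced list has 7 of 8 members in red at high dose.

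At low dose, 47 miRNAs were called, 29 higher and 18 lower, against 37 at high dose. Without high dose 3-d replicate 24 the order was the opposite, with 59 called at low dose and 75 at high dose. As that library was chosen by its values, this does not show which dose changed more miRNAs. Among miRNAs whose groups did not overlap, those with the smallest p-values were miR-7a-5p, miR-148a-5p and miR-98-5p on the higher side and miR-128-3p, miR-429 and miR-93-3p on the lower. There were 70 DEMs (23.3% of those tested), 44 higher and 26 lower, and those with an adjusted p-value below 0.05 were 15.6%. With TMM normalization 29 were higher and 36 lower. The groups did not overlap for 134 miRNAs (44.5%), 87 higher and 47 lower. Against the 2 control 3-d libraries there were 56 DEMs, 17 with an adjusted p-value below 0.05, and 42 of the 47 called were DEMs. Leaving out low dose 3-d replicate 43, 44 or 45 left 27, 30 or 19 called, and 41 of the 47 were DEMs whichever of the 14 libraries was left out.

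miR-148a-5p, the minor arm of the abundant hepatocyte miRNA miR-148a, was at 2810 and 2796 normalized RPM in control 3-d, at 2476 to 2795 in control 7-d, at 5634, 6127 and 5606 at low dose, at 2176 to 2816 in the middle dose livers and at 2194 to 3559 in the high dose livers. Each low dose library was above all other libraries, and the other doses overlapped the controls. The rise was 1.08 (SE 0.15, adjusted p = 0.000623), and 1.05 (SE 0.20, adjusted p = 0.0139) against control 3-d. Its share of the reads of both arms was 3.68 to 4.17% in the controls and 7.40 to 8.56% at low dose, while the major arm, miR-148a-3p, was at 60691 to 70542 at low dose and 64546 to 71262 in the controls. The difference between middle and low dose was -1.17 (SE 0.17, adjusted p = 0.00165) and that between high and low dose -1.09 (SE 0.17, adjusted p = 0.00353).

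miR-7a-5p, a brake on growth factor signaling, was at 27.9 to 35.8 in the controls, at 95.2, 106.2 and 90.9 at low dose, at 42.4 to 53.4 in the middle dose livers and at 72.1, 77.8 and 33.6 in the high dose livers. It was above the controls in all treated libraries but high dose 3-d replicate 24. It rose by 1.56 (SE 0.22, adjusted p = 0.000623) at low dose and by 0.88 (SE 0.22, adjusted p = 0.0196) at high dose, with 1.55 (adjusted p = 0.0151) and 0.87 (adjusted p = 0.168) against control 3-d, and its high dose value without replicate 24 was 1.18 (SE 0.15). miR-98-5p, a let-7 relative, rose at low dose from 150.2 to 191 in the controls to 277, 351 and 337 (log2 fold change 0.95, SE 0.17, adjusted p = 0.00301, and 0.81, adjusted p = 0.0491, against control 3-d). It was the 1 of 9 tested let-7 guide strands that was called. Over all tested miRNAs, 15.6% were called at low dose and 12.3% at high dose, so this count says little about the family. At high dose miR-98-5p rose too, by 0.60 (SE 0.17, adjusted p = 0.0299). It had 0.45 against control 3-d and 0.43 with TMM there, both under the fold change of a DEM. For all doses its value was 0.62 (SE 0.13, adjusted p = 0.0158), close to the fold change of a DEM, which it missed with TMM (0.50), with DESeq2 size factors (0.47), with library size alone (0.58), against control 3-d (0.47) and without middle dose 3-d replicate 10 (0.55), high dose 3-d replicate 22 (0.57) or control 7-d replicate 6 (0.58). The all-dose log2 fold changes of the 9 were 0.06 to 0.62.

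miR-128-3p, best known from neurons but also present in liver, was at 203 and 191 in control 3-d, at 179 to 197 in control 7-d, at 82.0, 50.4 and 45.1 at low dose, at 105, 164 and 215.6 in the middle dose livers, and at 138.2, 209 and 109.9 in the high dose livers. Low dose was below all other libraries. It fell there by 1.69 (SE 0.27, adjusted p = 0.00172), with -1.73 (SE 0.32, adjusted p = 0.0139) against control 3-d, and for all doses by 0.75 (SE 0.19, adjusted p = 0.0305). As it makes up most of the brain list, the list's summed level was 70.2 to 99.4 RPM at low dose against 199.6 to 238 in the controls. At high dose the oligodendrocyte miRNA miR-219a-5p of the same list was called, at 27.1, 9.95 and 12.9 normalized RPM against 5.76 to 8.58 in the controls (log2 fold change 1.31, SE 0.39, adjusted p = 0.0364, and 1.38 against control 3-d). For miR-128-3p, the difference between middle and low dose was 1.45 (SE 0.29, adjusted p = 0.0136) and that between high and low dose 1.36 (SE 0.29, adjusted p = 0.0118).

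The miR-29 family was divided by dose and by member. miR-29a-3p, its most abundant member, was at 2528 and 1986 in control 3-d, at 2464 to 2616 in control 7-d, at 1142, 1321 and 1335 at low dose, at 2104, 2176 and 2407 in the middle dose livers, and at 1990.4, 1917 and 3597 in the high dose livers. Low dose was below all other libraries, and high dose 3-d replicate 24 above all. The fall at low dose was 0.94 (SE 0.19, adjusted p = 0.00422), and 0.83 (SE 0.23, adjusted p = 0.0491) against control 3-d. miR-29b-3p, with the same seed, was at 18 to 23.1 in the controls and at 46.5, 35.2 and 42.1 at high dose, where it rose by 1.02 (SE 0.22, adjusted p = 0.0118), with 1.00 (SE 0.30) against control 3-d. For all doses its log2 fold change was 0.61 (SE 0.18, adjusted p = 0.0448), close to the limit of a DEM, which it missed under each of the other 3 scalings (0.49 with TMM) and without control 3-d replicate 2, middle dose 3-d replicate 10, high dose 3-d replicate 22 or control 7-d replicate 4 (0.51 without middle dose 3-d replicate 10). miR-29c-3p had a log2 fold change of -0.07 (SE 0.17) for all doses and 0.07 against control 3-d.

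The cell cycle clusters held 22 tested miRNAs, of which 1 rose and 4 fell at low dose (15.6% of all tested miRNAs were called), 0 were called at middle dose and 2 rose at high dose (12.3% of all). Their summed level, most of which was miR-92a-3p, was 19835 to 23725 RPM in the controls, 12158 to 14751 RPM at low dose, 20555 to 29973 RPM for the middle dose and 12618 to 20819 RPM for the high dose. miR-19b-3p, of the growth-promoting miR-17 to miR-92a cluster, was at 450.8 to 569 normalized RPM in the controls and at 230, 218 and 240 at low dose, at 1182, 571 and 427 in the middle dose livers and at 689, 401 and 383 in the high dose livers. It fell at low dose by 1.21 (SE 0.28, adjusted p = 0.0106), with -1.25 (SE 0.35, adjusted p = 0.0491) against control 3-d. Its near relative miR-19a-3p, which differs by a single base, fell by 1.40 (SE 0.39, adjusted p = 0.0218), with -1.41 against control 3-d, and miR-92a-3p fell by 0.76 (SE 0.20, adjusted p = 0.0178), with -0.87 against control 3-d. miR-93-3p, of another cluster, fell from 7.82 to 11.3 in the controls to 2.69 to 3.99 (log2 fold change -1.60, SE 0.30, adjusted p = 0.00311, and -1.56 against control 3-d). miR-542-3p rose by 0.93 (SE 0.23, adjusted p = 0.015), with 0.83 against control 3-d. At high dose, miR-18a-5p and miR-19a-5p rose by 1.53 (SE 0.38) and 1.54 (SE 0.41), with 1.51 and 1.49 against control 3-d, and by 1.90 each without replicate 24.

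Of the tumor-suppressive list, 2 of 11 tested members rose and 1 fell at low dose, where 15.6% of all tested miRNAs were called, and 0 were called at the other doses. Both miR-101 forms rose, which share a seed and differ by 1 base, miR-101b-3p from 6053 to 7088 in the controls to 9151 to 11401 (log2 fold change 0.71, SE 0.17, adjusted p = 0.011, 0.74 against control 3-d, and 0.57 with TMM, under the fold change of a DEM) and miR-101a-3p by 0.84 (SE 0.23, adjusted p = 0.0218), with 0.92 against control 3-d. miR-365-3p fell by 0.79 (SE 0.20, adjusted p = 0.0172), with -0.69 against control 3-d. miR-26a-5p, the most abundant member, was at 52523 to 58276 at low dose against 64817 to 72966 in the controls and was not called at any dose. miR-455-3p had a log2 fold change of 0.21 (SE 0.18, adjusted p = 0.459), with 0.22 against control 3-d.

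Of 11 tested hepatocyte miRNAs, 2 were called at low dose, miR-148a-5p and miR-101a-3p, where 15.6% of all tested miRNAs were called. With all 14 libraries, 0 of the 11 were called at middle or high dose (12.3% of all at high dose). Counts this small do not set the list apart from all tested miRNAs. miR-148a-3p, the major arm, was at 48783 to 55446 at middle dose and at 47321, 41664 and 63407 at high dose, all below the lowest control at 64546. Its high dose value was -0.40 (SE 0.12, adjusted p = 0.0359), under the fold change of a DEM, with -0.42 against control 3-d, and without replicate 24 it was called (-0.59, SE 0.09, adjusted p = 0.000415). miR-122-5p was at 33058 to 37292 in the controls, at 44198, 52176 and 48617 at low dose, at 31005 to 44019 in the middle dose livers and at 28674 to 47958 in the high dose livers, so that low dose was the group with every library above all controls. The low dose value was 0.49 (SE 0.15, adjusted p = 0.029), under the fold change of a DEM, and 0.45 against control 3-d. Its all-dose log2 fold change was 0.24 (SE 0.11, adjusted p = 0.164), and 0.20 against control 3-d. Its other arm, miR-122-3p, was at 1341 to 1521 in the controls, 1130 to 1369 at low dose and 1771 to 2276 at high dose, with 0.14 (SE 0.11) for all doses and 0.16 against control 3-d. The difference of miR-122-3p between high and low dose was 0.70 (SE 0.16, adjusted p = 0.0123).

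Red blood cell (4 tested), endothelial (2), muscle (2), pancreas (1) and metabolic (9) lists had 0 called members at any dose in edgeR with all 14 libraries. Over all tested miRNAs, 15.6% were called at low dose and 12.3% at high dose, so 0 calls in lists this small say little. Among their members, DEMs that missed the adjustment were 1 in the red blood cell list at high dose, 1 in the muscle list and 1 in the metabolic list at low dose, and the same numbers of those 2 lists at high dose. Without replicate 24, miR-378a-3p (-0.64, SE 0.14), miR-33-5p (1.07, SE 0.34), miR-144-5p (-0.77, SE 0.24) and miR-499-5p (0.85, SE 0.21) of these lists were called at high dose, with adjusted p-values of 0.00536, 0.029, 0.0283 and 0.00973. The red blood cell list was at 4062 to 6724 RPM in the controls and 2903 to 8795 RPM in the treated libraries, the endothelial list at 19423 to 22771 and 16255 to 24885 RPM, and the muscle list at 20 to 26.6 and 22.4 to 40.8 RPM. In the stellate cell and smooth muscle list (7 tested), miR-143-5p was the 1 called, at high dose, where it fell from 22.8 to 27.6 normalized RPM in the controls to 13.6, 11.1 and 19.2 (log2 fold change -0.79, SE 0.22, adjusted p = 0.0275, and -0.74 against control 3-d). Its major arm, miR-143-3p, was not called, and 12.3% of all tested miRNAs were called at high dose. Of the let-7 passenger strands, 1 of 10, let-7d-3p, fell at low dose by 0.65 (SE 0.21, adjusted p = 0.0383), with -0.63 against control 3-d. Of the 6 tested liver cancer oncomirs, miR-182 rose and miR-221-5p fell at low dose (-0.83, SE 0.28, adjusted p = 0.0463, and -1.21 against control 3-d). For these 2 lists too, the share called over all tested miRNAs at low dose was 15.6%.

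At middle dose, 30 miRNAs were DEMs (9.97%), 29 higher and 1 lower, and miR-34a-5p was the 1 with an adjusted p-value below 0.05 in edgeR, where 42 had p below 0.05 before adjustment and the Wald test of DESeq2 gave 3. The groups did not overlap for 25 miRNAs (8.31%), 21 higher and 4 lower. The spread between the 3 rats was wide here. Without replicate 10 there were 16 DEMs and without replicate 11 there were 40. Against the 2 control 3-d libraries there were 12 DEMs, and 0 passed the adjustment (13 had p below 0.05 before it, and 1 in DESeq2). Besides miR-34a-5p, the higher DEMs whose groups did not overlap and whose p-values were smallest were miR-6329 (log2 fold change 1.21, SE 0.29, adjusted p = 0.113, and 1.22 against control 3-d) and miR-466c-3p (1.38, SE 0.37, adjusted p = 0.221, and 1.21 against control 3-d), and the lower one was miR-34c-5p (-0.62, SE 0.19, adjusted p = 0.262, and -0.69 against control 3-d). Of the listed miRNAs, the higher DEMs were miR-18a-5p (0.94), miR-219a-5p (0.89), miR-21-3p (0.81), miR-155-5p (0.78), miR-145-5p (0.76) and let-7b-5p (0.59), and 0 of these passed the adjustment.

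At high dose, 62 miRNAs were DEMs (20.6%), 56 higher and 6 lower, and 37 of them were called, 34 higher and 3 lower. Besides the inflammation-induced miRNAs, miR-6329 rose by 1.75 (SE 0.28, adjusted p = 0.00202), or 2.13 (SE 0.14) without replicate 24, and miR-200b-3p, miR-429 and miR-143-5p were the 3 that fell. The groups did not overlap for 56 miRNAs (18.6%), 42 higher and 14 lower. With TMM normalization 37 DEMs were higher and 16 lower. Of the 34 called higher, replicate 24 was past the highest control in 17 and replicates 22 and 23 in 34. Without replicate 24 there were 89 DEMs and 75 called, with 36 of the 37 among them. Without replicate 22 there were 5 called and without replicate 23 there were 8, and without control 7-d replicates 4, 5 or 6 there were 15, 17 or 19. Against the 2 control 3-d libraries there were 48 DEMs, and 4 passed the adjustment, miR-21-3p, miR-155-5p, miR-6329 and miR-200b-3p.

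**Figure D4:**
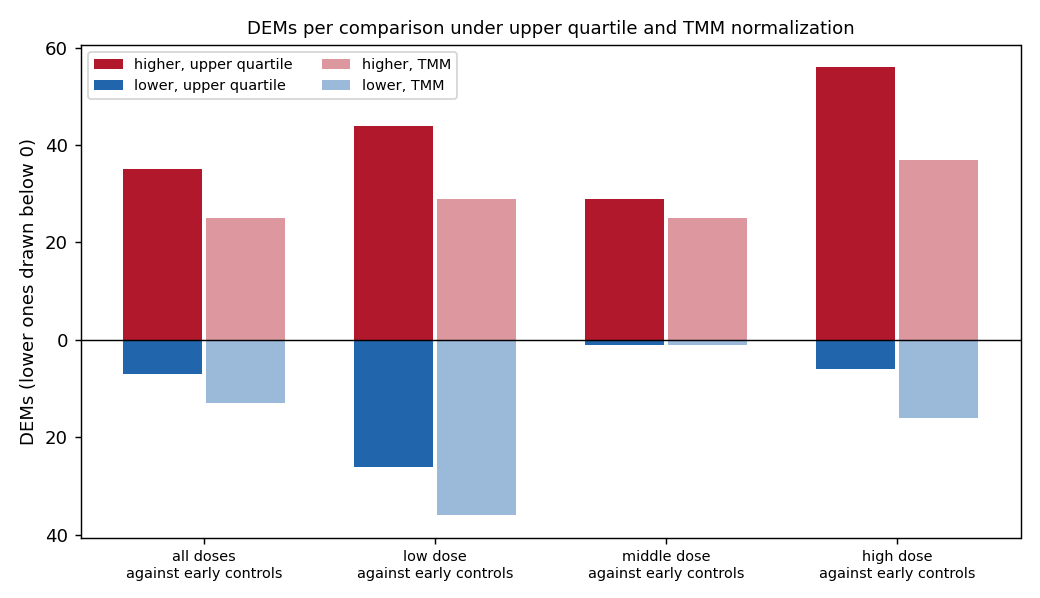
Number of DEMs against the early controls (bars above 0: higher, below 0: lower) for all doses together and for each dose, under upper quartile (darker) and TMM (lighter) normalization. With upper quartile normalization there were 44 higher and 26 lower DEMs at low dose and 56 and 6 at high dose, and with TMM 29 and 36, and 37 and 16.

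The doses differed from each other in both directions. Middle dose against low dose gave 53 DEMs (17.6%), of which 24 (7.97%) passed the adjustment, 13 higher and 11 lower at middle dose. The 53 were 33 higher and 20 lower, against 45 and 14 with TMM and 59 and 7 with library size alone. High dose against low dose gave 57 DEMs (18.9%), of which 23 (7.64%) passed, 13 higher and 10 lower at high dose, and its 57 were 38 higher and 19 lower, against 55 and 11 with library size alone. The miRNAs with the smallest p-values in these 2 comparisons were miR-148a-5p, miR-340-5p and miR-1843a-5p among those higher at low dose, and miR-19b-3p, miR-128-3p and miR-29a-3p among those lower at low dose. miR-340-5p was at 682 to 831 normalized RPM at low dose and 286 to 448.5 at middle dose (difference -0.95, SE 0.20, adjusted p = 0.0136), and miR-1843a-5p at 149 to 153.4 at low dose and 76.7 to 102.8 at high dose (-0.82, SE 0.16, adjusted p = 0.0118). miR-29a-3p was higher at high than at low dose by 0.98 (SE 0.21, adjusted p = 0.0118), and by 0.63 (SE 0.14) without replicate 24. miR-19b-3p was higher at middle than at low dose by 1.66 (SE 0.31, adjusted p = 0.013). miR-200a-3p was lower at high than at low dose by 1.12 (SE 0.24, adjusted p = 0.0118), and miR-378a-3p, encoded in an intron of a metabolic coactivator gene, was at 19322 to 27814 at high dose against 35345 to 41753 at low dose (difference -0.79, SE 0.17, adjusted p = 0.0118). The adjusted numbers moved with single libraries. Without low dose 3-d replicate 45 there was 1 in either comparison, and without high dose 3-d replicate 24 there were 44 and 51.

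Between high and middle dose, 19 miRNAs were DEMs, 15 higher and 4 lower at high dose, and 0 passed the adjustment in edgeR (39 had p below 0.05 before it, and 5 in DESeq2). The 2 higher DEMs with the smallest p-values were miR-21-3p (difference 1.74, SE 0.42, adjusted p = 0.0844) and miR-21-5p (0.72, SE 0.18, adjusted p = 0.0844), and the lower ones were miR-200b-3p (-1.24, SE 0.28, adjusted p = 0.0844) and miR-339-5p (-0.72, SE 0.22, adjusted p = 0.189). Without high dose 3-d replicate 24 there were 40 DEMs and 22 called, among them miR-21-3p with 2.10 (SE 0.36, adjusted p = 0.00373) and miR-155-5p with 1.74 (SE 0.28, adjusted p = 0.00335), and without middle dose 3-d replicates 10 or 11 there were 44 or 35 DEMs. With TMM normalization 10 DEMs were higher and 11 lower. With all 14 libraries, miR-34a-5p had 2.10 (SE 0.45) at high and 2.59 (SE 0.45) at middle dose against the early controls. Without replicate 24 the difference of miR-34a-5p between high and middle dose was 0.01 (SE 0.28, adjusted p = 0.988). As that library was chosen by its values, this does not show that the doses are alike.

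Few miRNAs were DEMs between the controls of the 2 time points, but 3 against 2 libraries cannot show that the time points are alike. Control 7-d against control 3-d (3 against 2) gave 6 DEMs (1.99%), 2 higher and 4 lower, and 0 passed the adjustment in edgeR or in DESeq2, and 7 had p below 0.05 before adjustment in each. Of the listed miRNAs these were miR-221-3p (log2 fold change -0.85, SE 0.25, adjusted p = 0.818) and its other arm miR-221-5p (-0.70, SE 0.28, adjusted p = 0.995), at 169.8 and 123 normalized RPM for miR-221-3p in control 3-d and 72.8 to 85.9 in control 7-d. The others, named because there are few, were miR-184 (2.74, SE 0.84) and miR-6321 (8.54, SE 3.38) on the higher side. On the lower side they were miR-743b-3p (-4.63, SE 1.5) and miR-702-3p (-0.86, SE 0.35). None of the 6 was among the 23 miRNAs called for all doses. miR-429 and miR-200b-3p were higher in both control 3-d libraries than in any control 7-d library, with log2 differences of -0.31 (SE 0.21) and -0.39 (SE 0.30) that were no DEMs.

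**Figure D5:**
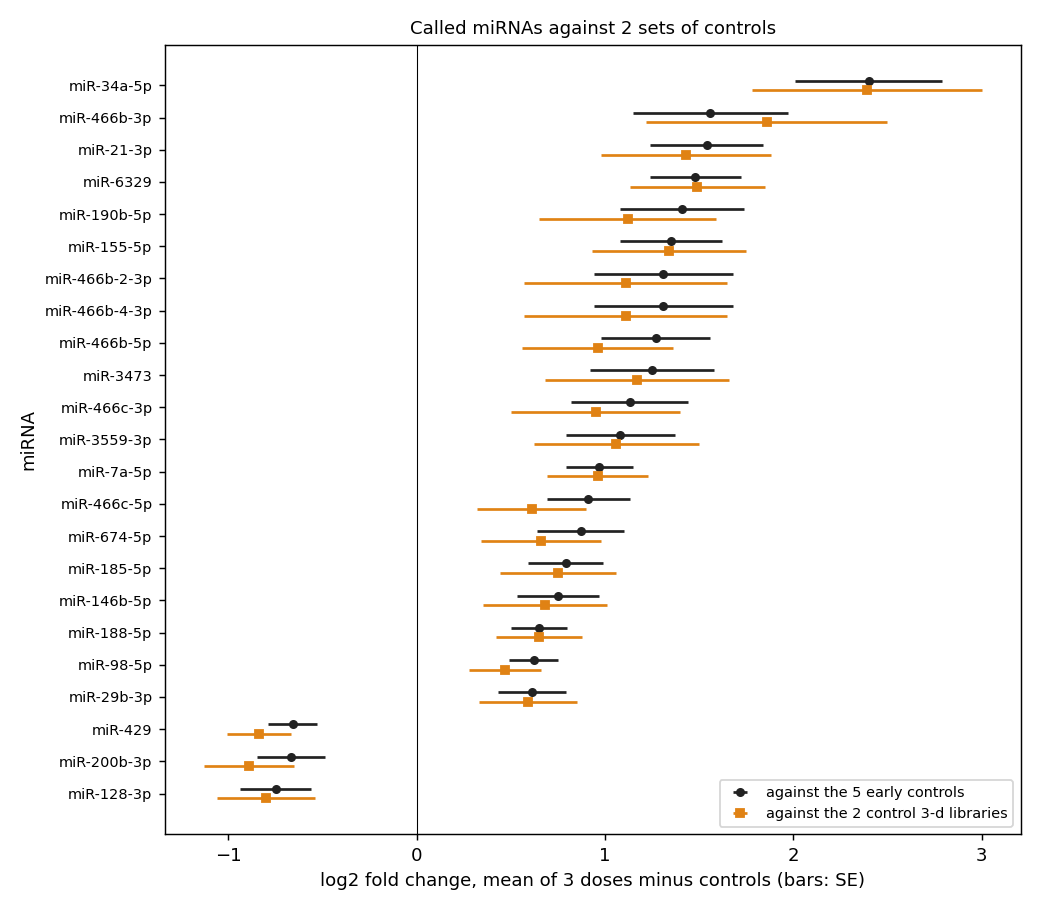
Log2 fold change of the mean of the 3 doses for the 23 called miRNAs against the 5 early controls (circles) and against the 2 control 3-d libraries alone (squares), with standard errors (bars). All 23 have the same direction in both, miR-34a-5p at 2.40 and 2.39 and miR-200b-3p at -0.67 and -0.89, and the standard errors are larger with 2 controls. Both sets of values use the same treated libraries and share the 2 control 3-d libraries, so they are not independent.

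The median GC content of the miRNAs that rose was below that of those tested. The higher all-dose miRNAs include several members of the repeat-derived miR-466 family, which are not separate evidence, and their GC content ran from 23.8 to 61.9%. The median GC content of the 19 higher all-dose miRNAs with a sequence was 39.1%, that of the 270 tested miRNAs with a sequence 45.6%, and at high dose that of 32 higher miRNAs was 40.5%. At low dose it was 43.5% for 27 that rose and 48.8% for 16 that fell. Seed families were formed from the miRNAs with a RefSeq sequence, which leaves out miR-200b-3p and miR-429. These close relatives both fell for all doses, so the counts below do not cover every family. In the families with several tested members and an all-dose call, the call was that of a single member. It was 1 of 3 with the seed of miR-34a-5p, 1 of 3 with that of miR-29b-3p and 1 of 2 with that of miR-146b-5p. It was 1 of 2 with the seed of miR-190b-5p and 1 of 9 with that of miR-98-5p. Over all tested miRNAs, 6.64% were called higher for all doses, so single calls in families this small say little. The GC contents and family counts are descriptions of the called sets and were not tested.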

How the data were processed

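Total RNA of rat liver was extracted with the mirVana kit and made into small RNA libraries with the TruSeq kit, of which 48 were pooled and sequenced. After trimming, the authors retained inserts of 18 to 25 bases, checked quality with FastQC and species against rn5, and counted reads on the precursors of miRBase release 21 with miRDeep2. The deposited values are raw counts, one row per mature miRNA and precursor, without normalization. Counting per precursor means that near-identical copies can share or split reads.

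Of 847 rows, the precursor row with the most reads was kept for each of 764 mature miRNAs (71 had several), and 301 miRNAs entered the tests, those reaching 5 RPM in 3 or more of all 48 libraries. A miRNA could thus enter through libraries outside this comparison. Groups came from the labels. Depth was 6602592 to 13230394 counts. edgeR 4.0.16 (R 4.3.3) fitted 4 groups of 14 libraries by quasi-likelihood with upper quartile normalization, and a second fit kept control 3-d and control 7-d apart. Fold changes are between group means on the log2 scale, the SE follows from the F statistic, and p-values were adjusted by Benjamini-Hochberg over the 301. The 3 doses share the same controls, so their results are not independent of each other. Exact permutation tests were 2-sided over 2002 splits. Sequence tables were from RefSeq (GRCr8). Plots and tables were made with Python 3.11.15 and pandas 2.3.3. On simulated counts, the all-dose fit called 38 of 45 miRNAs changed by 1 on the log2 scale, 55 of 55 changed by 2 and 1 of 201 unchanged. At middle dose it called 30 of 45 changed by 1 and 3 of 201 unchanged. All treated libraries had the same changes there, without dose differences or a deviant library, so these numbers do not give the power or error rate of the real comparison.

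The miRNAs named were the 10 higher and 10 lower DEMs of smallest p for all doses (3 and 3 for each dose) whose groups did not overlap, the 2 and 2 for each dose difference, 5 miRNAs the study names, and in each list the 4 most abundant members and the DEMs. The libraries, lists and rules were chosen with earlier results of these data known. Alternatives were other scalings (TMM, DESeq2 size factors, library size), filters, the Wald test of DESeq2 1.42.0, summed precursors, other sets of controls, separate fits of the groups compared, and leaving out each library.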

Additional observations from a re-analysis of the deposited data

Results flagged for a closer look

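A total of 31 differences between doses passed the adjustment in edgeR (adjusted p-value below 0.05 over 301 miRNAs) among the named miRNAs, given as log2 fold changes. Between middle and low dose, the values lower at middle dose were -0.82 for miR-188-5p, -1.17 for miR-148a-5p, -1.07 for miR-7a-5p, -0.65 for miR-98-5p, -0.95 for miR-340-5p, -0.74 for miR-1843a-5p, -0.63 for miR-126a-5p, -0.97 for miR-542-3p and -0.77 for miR-101b-3p. Those higher at middle dose were 1.66 for miR-19b-3p, 1.45 for miR-128-3p, 0.82 for miR-29a-3p, 0.80 for miR-429, 1.44 for miR-93-3p, 1.01 for miR-150-5p, 1.64 for miR-145-5p, 0.88 for miR-92a-3p and 2.05 for miR-19a-3p. Between high and low dose, the values were -1.09 for miR-148a-5p, -0.82 for miR-1843a-5p, -1.12 for miR-200a-3p, -1.42 for miR-200a-5p, -0.79 for miR-378a-3p and -0.66 for miR-101b-3p, and 1.10 for miR-19b-3p, 1.36 for miR-128-3p, 0.98 for miR-29a-3p, 1.45 for miR-93-3p, 0.70 for miR-122-3p, 2.42 for miR-212-5p and 1.73 for miR-19a-3p.

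In 23 of 196 sets of 5 control or 9 treated values, 1 library lay farther from the rest than Dixon's test allows at 95%. Chance would give about 1 in 20 if each set came from a single homogeneous group. The treated sets pool 3 doses and the control sets 2 time points, so that rate does not apply here. A flag therefore does not tell a deviant library from a difference between groups. Among controls, control 3-d replicate 2 was the highest in miR-1843a-5p (104.1 normalized RPM), miR-182 (2035), miR-96-5p (16.4), miR-378a-3p (38918.2), miR-210-3p (105.0) and miR-133a-3p (11.7) and the lowest in miR-466b-3p (0.551). Control 3-d replicate 3 was the lowest in miR-29a-3p (1985.9), control 7-d replicate 4 in miR-148a-5p (2476) and control 7-d replicate 6 in let-7e-3p (4.93). Among treated libraries, middle dose 3-d replicate 12 was the highest in miR-143-5p (32.9), miR-92a-3p (27180.7), miR-503-3p (18.9), let-7d-3p (829.9), let-7b-3p (81.2) and let-7e-3p (11.1), and middle dose 3-d replicate 10 in miR-19b-3p (1182) and miR-145-5p (931.7). High dose 3-d replicate 23 was the highest in miR-212-3p (10.2) and miR-212-5p (6.09), replicate 22 in miR-466b-3p (7.95), replicate 24 in miR-29c-3p (463.2), and low dose 3-d replicate 44 in miR-200a-5p (14.1).

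The left-out control 3-d replicate 1 held signal above the other controls in 3 lists. Its red blood cell miRNAs made up 98080.3 RPM (28770 reads) against at most 6724.3 in the other controls, its cell cycle clusters 100896.3 RPM (29596 reads) against at most 23724.8, and its let-7 passenger strands 15020.6 RPM (4406 reads) against at most 1021.2.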

How the results depend on the processing

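No paired analysis was possible because every library has a replicate number of its own. Of 2629 values for single miRNAs under the alternatives, 2286 kept their direction and their side of the threshold, and 62 newly passed it. Another 175 changed sign without being a DEM in either fit. A further 3 changed sign and were a DEM in the main fit or in the alternative. The rest fell short of the threshold. The 3 were miR-455-3p at -1.52 and let-7b-3p at -2.18 when the shallow control 3-d replicate 1 was added, and miR-29b-3p at -0.0 against all 11 controls. The cause was not tested. In the counts below, those called are DEMs with an adjusted p-value below 0.05. For all doses, 24 DEMs remained with 5 RPM in every library, and the number called was 10 with library size alone, 0 against the 2 control 3-d libraries, 8 against the 3 control 7-d libraries, 13 with control 3-d replicate 1 added and 36 with all 11 controls. At low dose it was 17 against control 3-d, 27 with replicate 1 added and 75 in a separate fit of the groups compared. At middle dose, DEMs were 13 with 5 RPM in every library, 12 against control 3-d and 16 with replicate 1 added, and 3 were called with no filter, with DESeq2 or in a separate fit, 0 against control 3-d or control 7-d alone and 7 with all 11 controls. At high dose, DEMs were 38 with 5 RPM in every library, and 20 were called with that filter or library size alone, 24 with no filter, 4 against control 3-d and 9 against control 7-d. Between middle and low dose, 39 were called with library size alone, 13 with no filter and 40 with DESeq2, which also called 40 between high and low dose. Between high and middle dose, DEMs were 40 with no filter and 9 with 5 RPM in every library, and 1 was called with TMM, 2 with no filter and 5 with DESeq2. Against control 3-d, 60 were DEMs with no filter. Between the controls, 21 were DEMs with no filter and 2 with 5 RPM in every library.

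With a library left out, DEMs ranged from 36 to 52 and those called from 6 to 46 for all doses, from 58 to 78 and 19 to 59 at low dose, from 16 to 40 and 0 to 5 at middle dose, and from 42 to 89 and 5 to 75 at high dose. Between middle and low dose they ranged from 44 to 72 and 1 to 44, between high and low dose from 45 to 82 and 1 to 51, and between high and middle dose from 14 to 44 and 0 to 22. Against control 3-d, DEMs ranged from 13 to 43, and between the controls from 3 to 8. Where 1 control 3-d library remained, it was assumed to vary like the other groups. With library size alone, 23 DEMs were higher and 39 lower at low dose, against 44 and 26. Depth limits miR-34a-3p, miR-212-5p and miR-466b-3p, which had few reads in the controls.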
